A study of Mus musculus with 6 samples.

Results

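The gene of proopiomelanocortin (POMC) and 7 genes of its processing and of the cells that make it were examined in bulk RNA-seq of the mouse pituitary. The genes were taken by symbol from the deposited table of read counts, and 8 of 8 were found among its 16736 rows. They are POMC, the convertase genes PCSK1 and PCSK2, the receptor genes CRHR1 and AVPR1B, and the transcription factor genes TBX19, NEUROD1 and PAX7. Each of the 8 passed the filter on low counts and was tested among 13873 genes.

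The study holds 6 libraries, 3 labelled HFD and 3 labelled RD, from pituitaries of male mice. All mice had been fasted for 16 h and then fed for 4 h before the gland was taken, in both groups alike. RD and HFD are not written out in the labels, which name no strain, age or duration of diet and do not say whether a library is 1 gland or a pool. The title of the series places the diets in the setting of obesity and fatty liver. Nothing in the labels ties a library to an animal of its own, and the p-values therefore measure only library-to-library spread, some of which may be technical. Totals were between 14185372 and 18111345 counts a library.

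POMC is made by 2 cell types of the gland. Corticotrophs of the anterior lobe cut the precursor with the convertase PC1/3, encoded by PCSK1, and release corticotropin, which drives glucocorticoid output of the adrenal gland. Melanotrophs of the intermediate lobe also hold the convertase PC2, encoded by PCSK2, and cut corticotropin further, to alpha-melanocyte-stimulating hormone. TBX19 (TPIT) is the T-box factor that both types need to express POMC, NEUROD1 is a helix-loop-helix factor of the corticotroph branch in development, and PAX7 is the pioneer factor that sets the melanotroph identity. CRHR1, the receptor of corticotropin-releasing hormone, and AVPR1B, the vasopressin receptor of corticotrophs, carry the hypothalamic signals for corticotropin release.

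Genome positions are those of GENCODE M21 on mm10 (GRCm38), the build named in the submitters' processing notes. POMC lies on chromosome 12 (3954951 to 3960642, plus strand) and CRHR1 on chromosome 11 (104132855 to 104175523, plus strand). PCSK1 lies on chromosome 13 (75089826 to 75134861, plus strand) and PCSK2 on chromosome 2 (143546156 to 143816285, plus strand). NEUROD1 is on the minus strand of the same chromosome (79452521 to 79456751). AVPR1B (131599239 to 131612000, plus strand) and TBX19 (165137855 to 165160773, minus strand) are on chromosome 1, and PAX7 is on chromosome 4 (139737062 to 139833528, minus strand). All 8 are protein-coding, and the values below are counts of reads assigned to each gene as a whole. An exon of NEUROD1 overlaps an exon of Cerkl on the same strand, and exons of PCSK2 overlap the antisense genes Pcsk2os1 and Pcsk2os2. Whether counting used strand is not given in the sources used here, so reads of these pairs may be shared.

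The sequences just upstream of the precursor gene and of the gene of its first convertase are shown because these 2 held matches to the short motifs searched. Any link between these motifs and the counts was not tested. RefSeq start sites on GRCm38.p6 were available for 7 of the 8 genes. The first line gives the 250 bases before the start of Pomc (chr12:3954695-3954944, plus strand), and the second gives bases 250 to 51 before the start of Pcsk1 (chr13:75089607-75089806, plus strand), both from 5′ to 3′.
Pomc: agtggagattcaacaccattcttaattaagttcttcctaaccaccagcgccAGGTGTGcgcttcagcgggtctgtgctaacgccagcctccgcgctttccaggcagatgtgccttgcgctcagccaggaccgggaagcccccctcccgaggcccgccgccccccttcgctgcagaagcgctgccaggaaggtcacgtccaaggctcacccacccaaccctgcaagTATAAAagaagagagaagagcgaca
Pcsk1: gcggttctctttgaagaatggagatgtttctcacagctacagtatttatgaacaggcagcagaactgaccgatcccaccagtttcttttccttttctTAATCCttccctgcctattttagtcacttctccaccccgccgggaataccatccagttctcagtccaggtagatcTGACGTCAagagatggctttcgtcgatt
Capitals mark matches, on either strand, to 5 motifs that were searched, namely the TATA box (TATAAA), the cyclic AMP response element (TGACGTCA), the NR4A monomer site (AAAGGTCA), the PITX site (TAATCC) and a T-box monomer site (AGGTGTG). In Pomc a T-box site lay 199 to 193 bases before the start and a TATA box 25 to 20 bases before it. In Pcsk1 a PITX site lay 153 to 148 bases and a cyclic AMP response element 78 to 71 bases before the start. The motifs did not overlap. Over 32851 promoter windows of the same length, 12.4% held the TATA box, 1.55% the cyclic AMP response element, 1.34% the NR4A site, 6.25% the PITX site and 5.10% the T-box site. The 250 bases before the RefSeq start of CRHR1, TBX19, NEUROD1, PCSK2 and PAX7 held no match to these letters. RefSeq starts differ from the GENCODE positions given above. The window of PAX7 (139832969 to 139833218) lay inside its GENCODE span. Those of NEUROD1 (79456637 to 79456886) and PCSK1 (75089607 to 75089856) overlapped theirs in part. Bases farther upstream were not searched for any gene, so a missing match does not mean that a gene lacks the site. Whether TBX19 or another factor binds the marked matches was not tested.

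POMC levels spanned 2.47-fold over the 6 libraries, with PCSK2 and PAX7 high and low in the same libraries, while CRHR1 was higher in every HFD library than in any RD library. By edgeR's quasi-likelihood test, 1 of the 8 genes was called (adjusted p under 0.05, Benjamini-Hochberg over all tested genes), CRHR1, which rose 1.28-fold. The share over all tested genes was 10.5%, of which 5.87% were higher in HFD and 4.61% lower in HFD. No gene of the 8 was called lower by edgeR, DESeq2 or limma-voom. By edgeR 1, PCSK1, was lower at an unadjusted p under 0.05, as were 1731 of the 13873 tested genes. The log2 changes of the 8 genes ran from -0.34 to 0.58 with a median of -0.00, which is also the median over all tested genes.

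**Figure D1:**
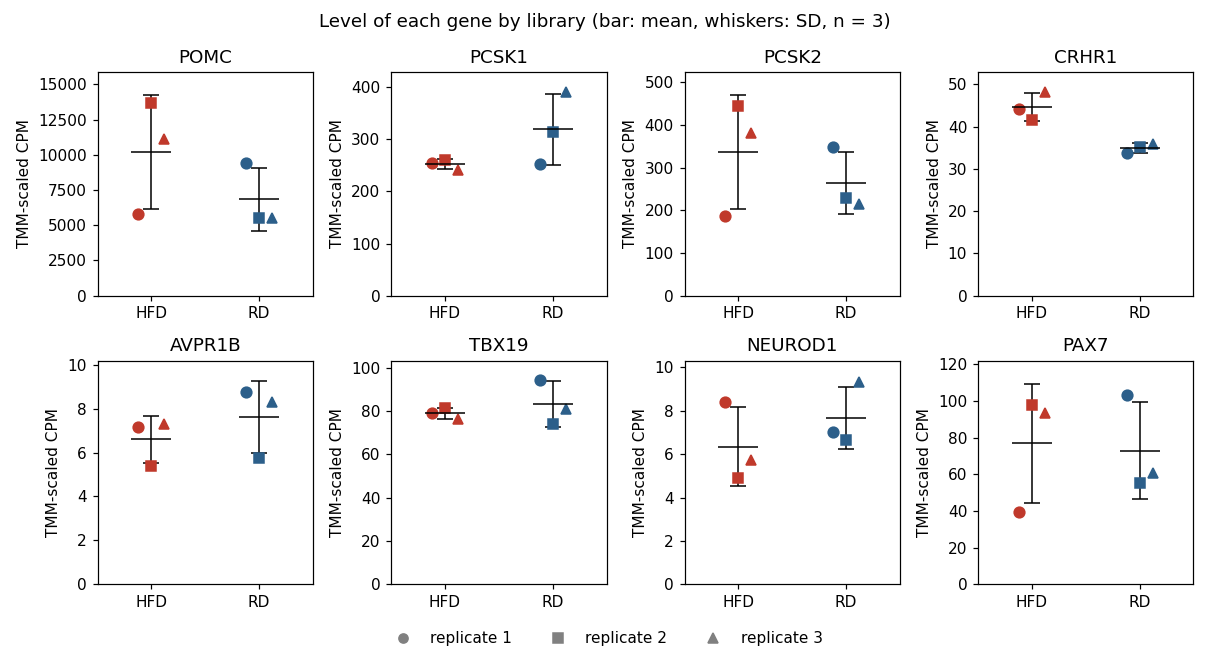
TMM-scaled CPM (vertical axes) of the 8 genes in the 3 HFD and 3 RD libraries, with marker shapes for the replicate number, horizontal bars for the mean and whiskers for the SD. CRHR1 alone has groups that do not overlap, and HFD replicate 1 is the lowest HFD library and RD replicate 1 the highest RD library for POMC, PCSK2 and PAX7.

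POMC, the hormone precursor, stood at 5792, 13677 and 11155 CPM (read counts relative to library size, scaled by TMM factors) in HFD replicates 1, 2 and 3, against 9447, 5526 and 5537 CPM in RD replicates 1, 2 and 3. HFD replicates 2 and 3 lay above all RD libraries, HFD replicate 1 lay close to the lower 2 RD libraries, and the groups overlapped. The precursor took 0.589%, 1.40% and 1.15% of counts in the HFD libraries and 0.941%, 0.541% and 0.529% in the RD libraries. On average POMC was at 10208 ± 4027 CPM in HFD and 6837 ± 2261 CPM in RD (SD, n = 3 each). Its log2 change of 0.58 ± 0.29 (SE) did not pass the threshold (adjusted p = 0.23), and the 95% confidence interval of the change, -0.06 to 1.22, runs from a 0.958-fold to a 2.33-fold level. With 1 library left out the log2 change lay between 0.31, without HFD replicate 2, and 0.88, without RD replicate 1. It was 0.86 without HFD replicate 1 (adjusted p = 0.0525) and passed in none of the 6 such fits (adjusted p up to 0.60). In bulk tissue, fewer cells of a type and less RNA per cell cannot be told apart.

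PCSK2, the convertase of the intermediate lobe, was at 187, 445 and 380 CPM in HFD replicates 1 to 3, against 348, 228 and 215 CPM in RD replicates 1 to 3. The same libraries were high and low as for POMC. Its log2 change was 0.35 ± 0.28 (adjusted p = 0.46), and single libraries set its size: it was 0.64 without HFD replicate 1, 0.60 without RD replicate 1, 0.10 without HFD replicate 2 and 0.22 without RD replicate 3. PAX7, the melanotroph factor, was at 39.3, 98.0 and 93.2 CPM in the HFD libraries and 103, 55.0 and 60.6 CPM in the RD libraries, a log2 change of 0.08 ± 0.32 (adjusted p = 0.91). Here RD replicate 1 was the highest of all 6 libraries, whereas for POMC and PCSK2 it stood below HFD replicates 2 and 3. The sign of the PAX7 change depended on single libraries: without HFD replicate 2 it was -0.14, and without HFD replicate 1 it was 0.39.

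PCSK1, the convertase of both cell types, did not follow this pattern. It stood at 256, 260 and 242 CPM in HFD replicates 1 to 3 and at 253, 314 and 390 CPM in RD replicates 1 to 3, so that RD replicates 2 and 3 were above every HFD library and RD replicate 1 was within the HFD range. The log2 change was -0.34 ± 0.13 (edgeR adjusted p = 0.13, 95% confidence interval -0.63 to -0.05, and DESeq2 adjusted p = 0.054). It was called without RD replicate 1 (log2 change -0.49, adjusted p = 0.013) and in no other fit with a library left out. Without RD replicate 3, where PCSK1 was highest, the log2 change was -0.17.

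Of the receptors, CRHR1 rose. It was at 44.2, 41.7 and 48.3 CPM in HFD replicates 1 to 3, against 33.7, 35.2 and 35.9 CPM in RD replicates 1 to 3. The lowest HFD library was above the highest RD library, as in 32.5% of all tested genes, in which the groups did not overlap in one direction or the other. The log2 change was 0.36 ± 0.09 (adjusted p = 0.031, 95% confidence interval 0.16 to 0.55), with means of 44.7 ± 3.35 CPM in HFD and 34.9 ± 1.11 CPM in RD (SD, n = 3 each). Leaving out 1 library at a time gave log2 changes between 0.30 and 0.40 and adjusted p between 0.028 and 0.14, and the gene was called without RD replicate 3 (0.028), where 10.1% of all genes were called. It was not called without HFD replicate 1 (4.99% of all genes called), HFD replicate 2 (3.5%), HFD replicate 3 (3.08%), RD replicate 1 (10.9%) or RD replicate 2 (6.35%). CRHR1 was called with DESeq2 size factors (10.4% of all genes called), upper-quartile scaling (10.6%), library size only (11.1%), TMM factors without hormone genes (10.4%), no filter (9.04%), a minimum count of 50 (11.8%), DESeq2 (12.8%), limma-voom (10.1%) and halved counts (11%), and not with the replicate number as a block (adjusted p = 0.073, with 5.82% of all genes called). AVPR1B, the other releasing-hormone receptor of corticotrophs, was near 7 CPM. Its libraries stood at 7.15, 5.37 and 7.30 CPM in HFD and at 8.75, 5.73 and 8.32 CPM in RD, which overlap. The log2 change was -0.20 ± 0.21 (adjusted p = 0.59), with an interval of -0.68 to 0.27, or 0.624-fold to 1.21-fold. With single libraries left out it ran from -0.38 (RD replicate 2) to -0.08 (HFD replicate 2).

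TBX19, the factor that POMC expression needs in both cell types, had the smallest ratio of highest to lowest level among the 8 genes. It was at 79.2, 81.2 and 76.3 CPM in HFD replicates 1 to 3 and at 94.5, 73.9 and 81.1 CPM in RD replicates 1 to 3. Its highest level was 1.28 times its lowest over the 6 libraries, against 2.47 times for POMC, 2.38 times for PCSK2 and 2.63 times for PAX7. The log2 change of TBX19 was -0.08 ± 0.10 (adjusted p = 0.66, interval -0.29 to 0.14). NEUROD1 was low, at 8.39, 4.89 and 5.75 CPM in the HFD libraries and 7.04, 6.64 and 9.30 CPM in the RD libraries, with overlapping groups. Its log2 change was -0.27 ± 0.23 (adjusted p = 0.50), with a range from -0.53 (HFD replicate 1 left out) to -0.12 (RD replicate 3 left out). The row of CERKL, whose exon overlaps NEUROD1, was at 7.28, 7.13 and 6.96 CPM in HFD and 5.38, 8.01 and 5.32 CPM in RD. The part of shared reads in either gene's values was not tested.

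**Figure D2:**
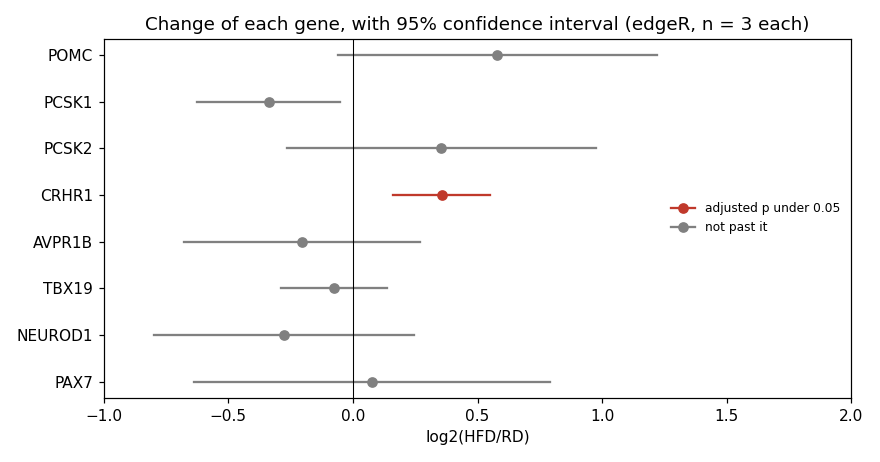
Log2 change, HFD over RD (horizontal axis), of each of the 8 genes (rows) from edgeR, with lines for the 95% confidence interval and red for an adjusted p under 0.05. CRHR1 is the red row at 0.36, the interval of PCSK1 lies below 0 although its adjusted p is 0.13, and those of POMC, PCSK2, AVPR1B, TBX19, NEUROD1 and PAX7 cross 0.

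Levels of different genes were set side by side per kilobase of merged exons. POMC averaged 7745 ± 3055 CPM per kb in HFD and 5187 ± 1715 CPM per kb in RD. PCSK1 came next, at 45.1 ± 1.67 CPM per kb in HFD and 56.9 ± 12.3 CPM per kb in RD, and then PCSK2, at 42.6 ± 16.9 CPM per kb in HFD and 33.4 ± 9.27 CPM per kb in RD (SD, n = 3 each). TBX19 followed, at 24.7 ± 0.774 CPM per kb in HFD and 26.1 ± 3.28 CPM per kb in RD. The order then went on with CRHR1 (18.2 ± 1.36 in HFD and 14.2 ± 0.453 in RD), PAX7 (13.1 ± 5.57 in HFD and 12.4 ± 4.49 in RD), NEUROD1 (2.32 ± 0.670 in HFD and 2.81 ± 0.527 in RD) and AVPR1B (1.64 ± 0.267 in HFD and 1.89 ± 0.406 in RD), all in CPM per kb. The order of the means was the same in both groups. PCSK1 and PCSK2 overlapped in HFD, where PCSK2 was the higher of the pair in 2 of the 3 libraries, and did not overlap in RD, where it was the higher in 0 of 3. The libraries of PCSK2 and TBX19 overlapped in both groups. CRHR1 and PAX7 overlapped in RD and not in HFD, and NEUROD1 and AVPR1B overlapped in HFD and not in RD.

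The genes also differed in their spread between libraries of a group. Over the 10748 genes whose mean log2 CPM reached 3, the SD of log2 CPM within groups was 0.56 for POMC, 0.54 for PCSK2 and 0.63 for PAX7, at percentiles 99.4, 99.3 and 99.6 of all such genes. For PCSK1 it was 0.22 (percentile 86.7), for TBX19 0.13 (56.0) and for CRHR1 0.08 (25.8). AVPR1B and NEUROD1 lay under that level and have no percentile.

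**Figure D3:**
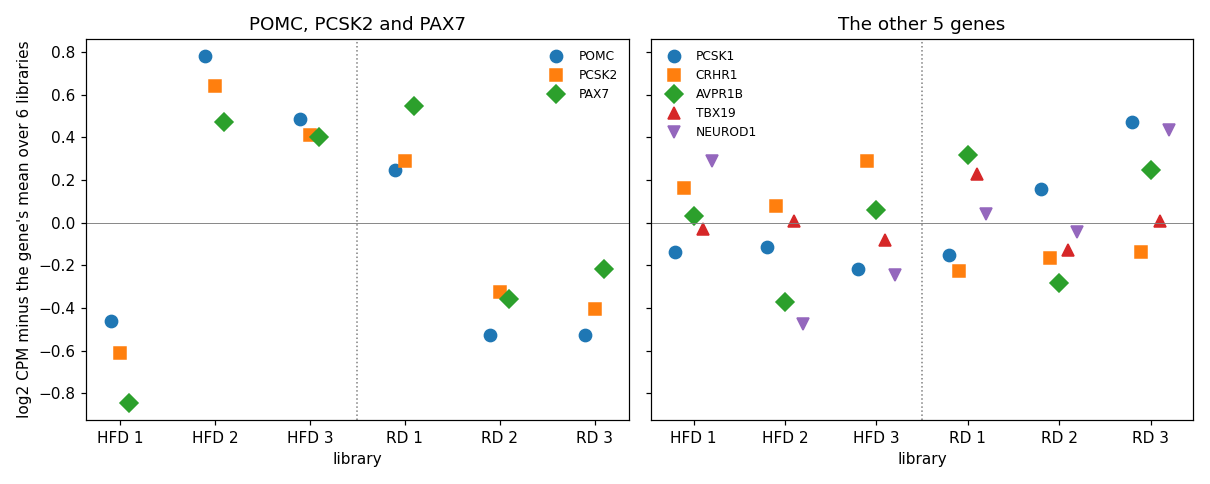
Log2 CPM of each gene minus its own mean over the 6 libraries (vertical axis), by library (horizontal axis, HFD and RD separated by the dotted line), for POMC, PCSK2 and PAX7 on the left and the other 5 genes on the right. On the left the 3 genes lie on the same side of 0 in each library, from -0.84 (PAX7 in HFD replicate 1) to 0.78 (POMC in HFD replicate 2), while on the right the points run from -0.47 (NEUROD1 in HFD replicate 2) to 0.47 (PCSK1 in RD replicate 3).

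Likeness to POMC was measured as the root mean square difference between log2 CPM profiles over the 6 libraries, each centred on its own mean. PCSK2 was number 2 in nearness among 10747 genes, with a difference of 0.13, and PAX7 was number 28, at 0.28. The median over the 10727 genes with a symbol on 1 row was 0.55. These values rest on 6 libraries that each gene shares. CRHR1 (0.49) and TBX19 (0.51) were number 2293 and 3145 in nearness, close to that median, and AVPR1B (0.63), PCSK1 (0.71) and NEUROD1 (0.80) were farther. A value close to the median does not mean a shared pattern. The 6 nearest genes to POMC were ASXL3 (0.12), a chromatin regulator, PCSK2, HECW1 (0.19), a ubiquitin ligase, KIT (0.19), the receptor of stem cell factor, TMEM44 (0.20) and WDR49 (0.21). ASXL3, for example, stood at 7.15, 13.1 and 12.6 CPM in HFD replicates 1 to 3 and at 9.79, 6.12 and 6.53 CPM in RD replicates 1 to 3. For PAX7 the 3 nearest were GULOP (0.11), GPSM2 (0.11), a regulator of spindle orientation, and GLI3 (0.12), a transcription factor of hedgehog signalling. GLI3 and GULOP were also the 2 nearest genes to PCSK2 (both 0.11), and POMC was the next (0.13). The nearest genes to CRHR1 were CCDC17, CELF6 and ILVBL (all 0.04), those to TBX19 were LRP5 (0.03), PLEKHM1 and PRSS36 (both 0.04), and those to PCSK1 were TMEM123 (0.03), NOC3L (0.04) and ENTPD7 (0.05). The medians over all compared genes were also lower than for POMC, at 0.24 for CRHR1, 0.18 for TBX19 and 0.26 for PCSK1.

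The levels of cell type markers were set beside this pattern. Of the 5 melanotroph markers tested, POMC, PAX7 and PCSK2 are the genes in which the order was seen, with HFD replicate 1 the lowest HFD library and RD replicate 1 the highest RD library. The other 2, ESM1 and DRD2, had the same order. ESM1, which encodes the proteoglycan endocan, was at 37.7, 64.5 and 89.0 CPM in HFD and at 86.2, 52.6 and 54.3 CPM in RD. DRD2, the dopamine receptor that restrains melanotrophs and lactotrophs, was at 102, 141 and 132 CPM in HFD and at 134, 117 and 131 CPM in RD, where replicates 1 and 3 were close. Summed without POMC, the melanotroph markers stood between 366 and 748 CPM in HFD and between 452 and 672 CPM in RD. None of the 5 was called by edgeR, DESeq2 or limma-voom, against 10.5% of all tested genes by edgeR. At an unadjusted p under 0.05 there were 0, against 1948 higher and 1731 lower among the 13873 tested genes. A count of 0 among so few genes does not show that they were unchanged.

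Genes of the posterior lobe, which is joined to the intermediate lobe, had the same order in 5 of 7 cases, against 14.0% of all tested genes. Their sum was 97.0, 213 and 206 CPM in HFD replicates 1 to 3, against 279, 168 and 196 CPM in RD replicates 1 to 3. COL25A1, which encodes a transmembrane collagen, was at 39.8, 84.8 and 79.0 CPM in HFD and 109, 61.2 and 71.5 CPM in RD, and SCN7A, a sodium channel gene, was at 45.7, 109 and 103 CPM in HFD and 146, 95.3 and 107 CPM in RD. RAX and NKX2-1, factors of the neural lobe, and OXT, the oxytocin gene, also followed that order, at no more than 6.42 CPM in any library, while AVP followed it in HFD alone and GFAP in neither group. All 7 were detected in every library. By edgeR, DESeq2 and limma-voom 0 of the 7 were called, against 10.5% of all tested genes by edgeR. Again 0 had an unadjusted p under 0.05, against 1948 higher and 1731 lower among the 13873 tested genes. So small a list cannot show that the posterior lobe genes were unchanged. Markers of corticotrophs did not show the order: the 7 markers other than POMC summed to 166, 155 and 165 CPM in HFD and to 166, 144 and 152 CPM in RD. Of the 8 corticotroph markers with POMC, 1 (CRHR1) was called, against 10.5% of all tested genes. TNNT1, GPC5, CDH8 and EFNB3 were not called, with log2 changes between -0.03 and 0.60.

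The order was also shown by 3 of 6 folliculostellate, 2 of 5 fibroblast, 1 of 5 endothelial and 1 of 5 myeloid markers, and by 0 of 4 somatotroph, 0 of 2 lactotroph, 0 of 4 gonadotroph and 0 of 3 thyrotroph markers. The sums of several other cell types did not overlap between the diets. Of all tested single genes, 32.5% did not overlap between the groups and 10.5% were called. Somatotroph markers (GH1, GHRHR, POU1F1 and PAPPA2) summed to 37131 to 40213 CPM in HFD and 59767 to 72627 CPM in RD, and 3 of the 4 were called lower. The lactotroph markers went in opposite directions, with PRL lower (log2 change -0.41, adjusted p = 0.013) and ANGPT1 higher (1.27, adjusted p = 0.0043), and their sum, nearly all PRL, was 9620 to 12234 CPM in HFD and 13706 to 15174 CPM in RD. Of the gonadotroph markers FSHB, LHB and GNRHR were called lower and NR5A1 was called higher (0.49, adjusted p = 0.022), with a sum of 1023 to 1108 CPM in HFD and 1345 to 1513 CPM in RD. Thyrotroph markers summed to 440 to 474 CPM in HFD and 227 to 313 CPM in RD. Folliculostellate markers summed to 179 to 203 CPM in HFD and 156 to 177 CPM in RD, and ALDH1A2 (0.43, adjusted p = 0.022) was the 1 of 6 that was called. Fibroblast markers summed to 300 to 384 CPM in HFD and 442 to 488 CPM in RD, and COL1A2 (-0.69, adjusted p = 0.0034) was the 1 of 5 that was called. Endothelial markers (340 to 360 CPM in HFD and 322 to 340 CPM in RD) and myeloid markers (63.1 to 72.1 CPM in HFD and 58.1 to 73.5 CPM in RD) overlapped between the groups, as did the 1 erythroid gene measured (up to 110 CPM in HFD and 93.3 CPM in RD). The part of these differences in the values of CRHR1 and PCSK1 was not tested.

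Ratios of 2 genes within a library do not depend on library scaling. The ratio of POMC to PCSK2 counts was 30.9, 30.8 and 29.3 in HFD replicates 1 to 3, against 27.1, 24.2 and 25.7 in RD replicates 1 to 3. Each HFD library was above each RD library, including HFD replicate 1, in which both genes were low. The mean ratio was 30.3 ± 0.873 in HFD and 25.7 ± 1.45 in RD (SD, n = 3 each), a difference in mean log2 ratio of 0.24 (exact two-sided permutation test, p = 0.10, the smallest that this test can give with 3 against 3 libraries). With any 1 library left out the difference lay between 0.20 and 0.28. The tested ratios were chosen with earlier results of these data known, so their p-values only describe these libraries. The ratio of POMC to PAX7 was added later, after the values were seen, and was not tested. It was 147, 140 and 120 in the HFD libraries and 91.6, 100 and 91.3 in the RD libraries, again without overlap. PCSK2 to PAX7 overlapped, with 4.77, 4.54 and 4.08 in HFD and 3.38, 4.15 and 3.55 in RD. Of all tested single genes, 32.5% did not overlap between the groups. The share among ratios of 2 genes is not given here, so a ratio without overlap cannot be called unusual.

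Against TBX19, the shared factor, POMC overlapped between the diets, at 73.2, 168 and 146 POMC counts per TBX19 count in HFD and 99.9, 74.8 and 68.2 in RD (difference in mean log2 ratio 0.61, exact permutation p = 0.30). The difference was 0.97 without HFD replicate 1 and 0.37 without HFD replicate 2. PAX7 per TBX19 count was 0.496, 1.21 and 1.22 in HFD and 1.09, 0.744 and 0.747 in RD (difference 0.09, exact permutation p = 0.80). The ratio of the convertases, PCSK2 to PCSK1, was 0.733, 1.71 and 1.57 in HFD and 1.38, 0.727 and 0.552 in RD. HFD replicate 1 and RD replicate 1 lay apart from the others of their group, in opposite directions, and the groups overlapped (difference 0.61, exact permutation p = 0.20). Without HFD replicate 1 the difference was 0.999, without RD replicate 1 it was 0.98, and it was 0.39 without HFD replicate 2 and 0.33 without RD replicate 3. None of the 4 tested ratios passed 0.05, which this permutation test cannot reach with 3 against 3 libraries.

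**Figure D4:**
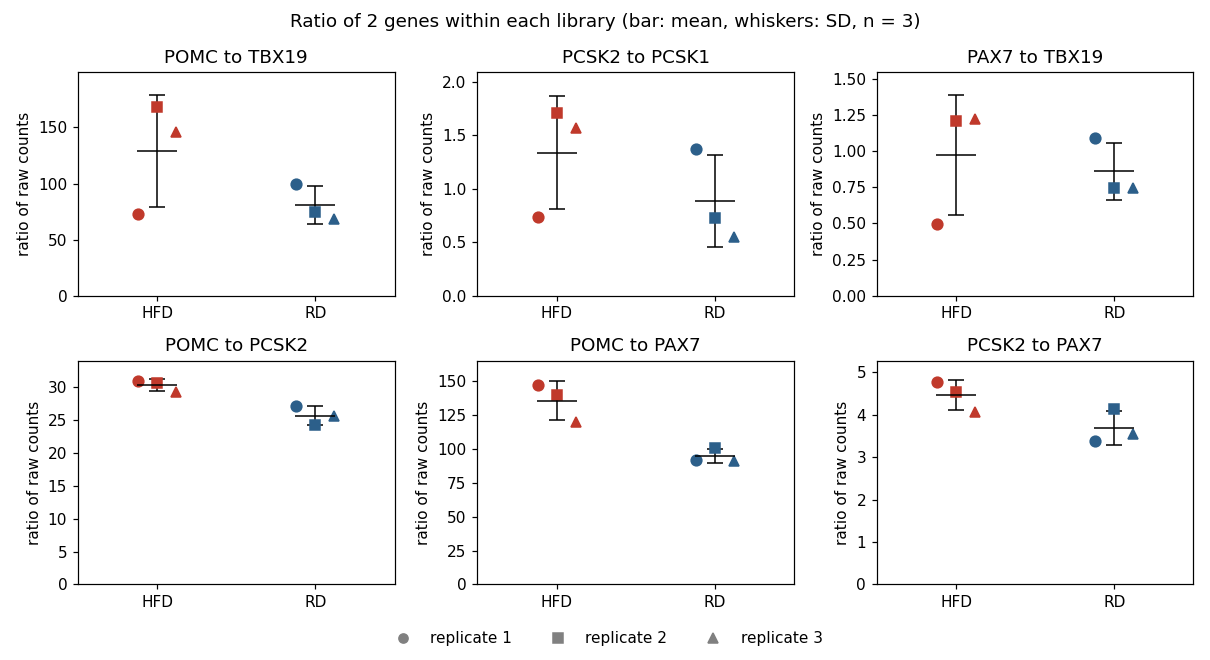
Ratio of raw counts of 2 genes within each library (vertical axes) in 3 HFD and 3 RD libraries, with marker shapes for the replicate number, horizontal bars for the mean and whiskers for the SD. POMC to PCSK2 (29.3 to 30.9 in HFD and 24.2 to 27.1 in RD) and POMC to PAX7 (120 to 147 in HFD and 91.3 to 100 in RD) do not overlap, while the other 4 ratios do. Of all tested single genes, 32.5% do not overlap.

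In 3 further fits of all genes, chosen after the values were seen, the level of intermediate or posterior lobe markers was a covariate. Each covariate had the order seen for POMC, with HFD replicate 1 the lowest HFD library and RD replicate 1 the highest RD library. The adjusted p-values below therefore only describe these fits and are no test of a change in any of the 8 genes. Genes that form a covariate are not read from its own fit, which leaves 7, 6 and 8 of the 8 genes. With the log2 level of PAX7 as the covariate the log2 change of POMC was 0.52 and it was called (edgeR, adjusted p = 0.0030), as were 9.51% of all genes. PCSK2 had a log2 change of 0.28 in that fit and was not called (adjusted p = 0.058), and CRHR1 kept 0.36 (adjusted p = 0.045). With the summed melanotroph markers other than POMC as the covariate, POMC had a log2 change of 0.36 (adjusted p = 0.0082, with 8.16% of all genes called) and CRHR1 one of 0.36 (adjusted p = 0.0495). With the summed posterior lobe markers, the log2 changes were 0.92 for POMC (adjusted p = 0.0026), 0.67 for PCSK2 (adjusted p = 0.0082) and 0.46 for PAX7 (adjusted p = 0.017), with 7.95% of all genes called, and CRHR1 was not called (0.35, adjusted p = 0.067). TBX19, AVPR1B, NEUROD1 and PCSK1 were called in none of these 3 fits. The log2 change of POMC ran from 0.36 to 0.92 with the choice of covariate, and each fit left 3 residual degrees of freedom.

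Of 15 enzymes and partners of prohormone processing tested, 1 rose and 1 fell, and 13 were not called, against 10.5% called over all tested genes. The median log2 change was 0.09, against -0.00 over all tested genes. PAM, which amidates the ends of peptides such as alpha-melanocyte-stimulating hormone, fell to 914 ± 43.4 CPM in HFD, against 1084 ± 70.6 CPM in RD, a log2 change of -0.25 ± 0.06 (adjusted p = 0.040). The convertase gene PCSK5 rose to 7.13 ± 1.35 CPM in HFD, against 4.21 ± 0.355 CPM in RD (log2 change 0.76 ± 0.20, adjusted p = 0.043). The related convertase gene PCSK6 (0.30 ± 0.09, adjusted p = 0.053) and PCSK1N, whose product proSAAS inhibits PC1/3 (0.20 ± 0.06, adjusted p = 0.068), were not called. The groups did not overlap in 6 of the 15 genes, PCSK6 and PCSK1N among them, against 32.5% of all tested genes. CPE, the carboxypeptidase that trims the cut ends, had a log2 change of -0.14 ± 0.06 (adjusted p = 0.18), and SCG5, whose product 7B2 chaperones PC2, one of 0.13 ± 0.06 (adjusted p = 0.23). Under upper-quartile scaling, and under library size only, 3 genes of the list rose and 0 fell, and PAM was not called. With single libraries left out, PCSK5 was called in 0 and PAM in 1 of 6 cases, and limma-voom did not call PCSK5 (adjusted p = 0.051). PCSK6 was called in 6 of 19 alternatives: DESeq2, limma-voom, upper-quartile scaling, library size only, a minimum count of 50 and without RD replicate 2. PCSK1N was called in 2, upper-quartile scaling and library size only. Which of these convertase genes was called thus depended on the method.

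Among 19 transcription factors of the POMC lineages tested, 3 rose and 16 were not called, against 5.87% of all tested genes that rose. None fell by edgeR, DESeq2 or limma-voom, against 4.61% of all tested genes that fell by edgeR. At an unadjusted p under 0.05, 0 were lower, against 1731 of the 13873 tested genes. The list's median log2 change was 0.18. LHX3, a LIM factor of pituitary formation, rose to 120 ± 4.80 CPM in HFD, against 96.6 ± 6.85 CPM in RD (log2 change 0.31 ± 0.08, adjusted p = 0.030), and INSM1, a zinc finger factor of endocrine cells, rose to 78.7 ± 7.22 CPM in HFD, against 62.5 ± 3.89 CPM in RD (0.33 ± 0.09, adjusted p = 0.044). NR4A3, an immediate early nuclear receptor, was at 121, 48.9 and 68.5 CPM in HFD and at 47.0, 18.4 and 24.7 CPM in RD, a log2 change of 1.40 ± 0.37 (adjusted p = 0.039; DESeq2 adjusted p = 0.068). Its relatives NR4A1 (Nur77), which in corticotrophs mediates the action of corticotropin-releasing hormone on POMC, and NR4A2 had log2 changes of 0.99 ± 0.42 (adjusted p = 0.17) and 0.99 ± 0.38 (adjusted p = 0.13). Without RD replicate 1 both were called, NR4A1 with a log2 change of 1.64 (adjusted p = 0.014) and NR4A2 with 1.65 (adjusted p = 0.0042), and neither was called with any other library left out. NR4A1, which was picked out for its known role after its values were seen, stood at 954, 467 and 564 CPM in HFD and 579, 147 and 275 CPM in RD, with overlap. KLF4 (0.70 ± 0.22, adjusted p = 0.073) and RXRG (0.40 ± 0.16, adjusted p = 0.15) were not called. With single libraries left out, LHX3 and NR4A3 were called in 2 of 6 cases and INSM1 in 1.

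Of 16 receptors and receptor subunits listed for corticotrophs and melanotrophs 12 were tested, and 2 rose, 1 fell and 9 were not called, with a median log2 change of -0.05 (10.5% of all tested genes were called). Besides CRHR1, ADCYAP1R1 rose, the receptor of the peptide PACAP, which also signals through cyclic AMP. It was at 72.4, 66.4 and 81.9 CPM in HFD and at 49.4, 53.4 and 43.3 CPM in RD, a log2 change of 0.60 ± 0.11 (adjusted p = 0.0088), and it was called in 5 of 6 cases with single libraries left out. IL6ST (gp130), the signalling subunit of the receptors of interleukin 6 and leukaemia inhibitory factor, fell to 239 ± 10.6 CPM in HFD, against 308 ± 25.5 CPM in RD (-0.37 ± 0.07, adjusted p = 0.014), and was called in 4 of those cases. SSTR2, a somatostatin receptor, had a log2 change of -1.32 ± 0.42 (adjusted p = 0.073), with RD replicate 3 at 9.01 CPM against 3.43 and 3.06 CPM in RD replicates 1 and 2. VIPR2 (0.83 ± 0.37, adjusted p = 0.18), LIFR (-0.10 ± 0.14) and GABBR1 (-0.06 ± 0.07) were not called.

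Downstream of the CRH receptor, 1 of 24 tested genes rose, 1 fell and 22 were not called, with a median log2 change of -0.00, so the share called was no higher than the 10.5% over all tested genes. CACNA1D, a voltage-gated calcium channel subunit, rose to 390 ± 19.0 CPM in HFD, against 320 ± 23.8 CPM in RD (0.28 ± 0.07, adjusted p = 0.036), and PRKAR1B, a regulatory subunit of protein kinase A, fell to 137 ± 5.68 CPM in HFD, against 178 ± 23.4 CPM in RD (-0.38 ± 0.09, adjusted p = 0.028). CRTC1, a coactivator of CREB (0.23 ± 0.07, adjusted p = 0.056), PLCB1 (0.23 ± 0.08, adjusted p = 0.089), PRKCA (-0.24 ± 0.09, adjusted p = 0.13) and MAPK3 (0.25 ± 0.10, adjusted p = 0.13) were not called. With library size only, 3 genes of this list rose and 1 fell. With single libraries left out CACNA1D was called in 2 of 6 cases and PRKAR1B in 3.

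**Figure D5:**
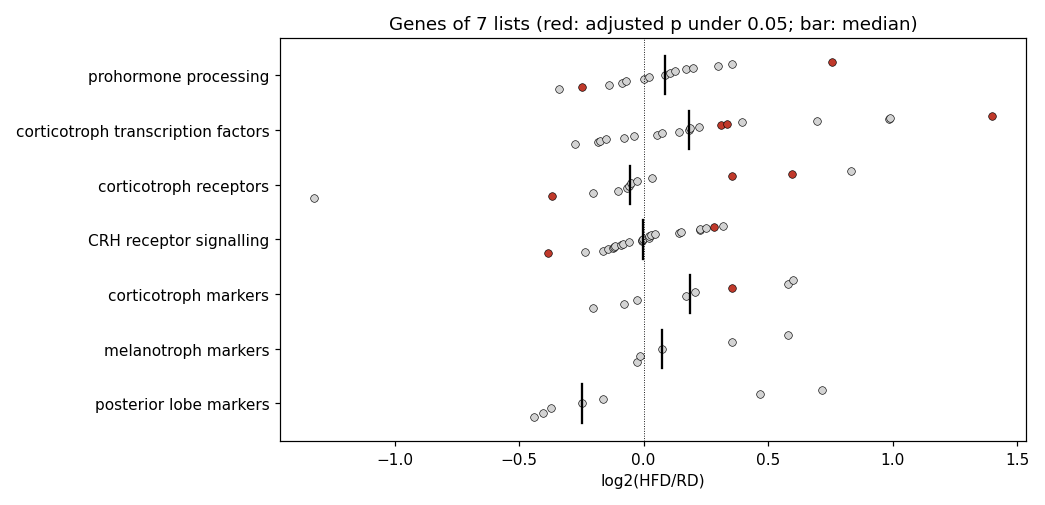
Log2 change, HFD over RD (horizontal axis), of each tested gene of 7 lists (rows), with red points for an adjusted p under 0.05 and vertical bars for the median of a list. Red points number 2 of 15 for prohormone processing, 3 of 19 for transcription factors, 3 of 12 for receptors, 2 of 24 for CRH receptor signalling, 1 of 8 for corticotroph markers, and 0 of 5 and 0 of 7 for melanotroph and posterior lobe markers. Of all tested genes, 10.5% were called.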

How the data were processed

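The deposited values are raw read counts, whole numbers listed by gene symbol; per the labels' protocols polyadenylated RNA was selected with oligo-dT after column extraction. The build was mm10, per the submitters' processing notes; the aligner, the counting tool and the annotation: not given in the sources used here. Of 6 value columns, 0 were left unused. Counts of 1 to 10 were even in 64.0% to 67.0% of cases and counts over 200 in 48.9% to 50.4%, so halved counts were an alternative and no counting intervals are given. Replicates differed beyond sampling noise (chi-square over its degrees of freedom 4.40 to 20.3), so each library counted as 1 sample.

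Counts were fitted with edgeR 4.0.16 in R 4.3.3 (TMM factors, 0.956 to 1.03; minimum count 10 and minimum total 15; intercept and diet), two-sided, threshold 0.05 after Benjamini-Hochberg adjustment over 13873 genes. Standard errors are the size of the log2 change over the square root of F. Log2 CPM used a prior count of 2. The fit was also run on simulated data drawn from these libraries, with no outcome given here. The genes, lists and tests were chosen with earlier results of these data known. Named were all 8 genes, per list up to 6 others with the smallest p, markers beside a result, and the nearest profiles. Of the lists, IL6RA, OACYL and 4 haemoglobin symbols had no row under those symbols and AGTR1 had 2 rows, so they were not analysed here. Alternatives used DESeq2 1.42.0 and limma 3.58.1.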

Additional observations from a re-analysis of the deposited data

How the results depend on the processing

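The count of genes called was 1453 and stayed within 1.5 times of that under the other scalings and filters, DESeq2, limma-voom, halved counts and the 3 covariate fits. It was 808 with a replicate block, and with 1 library left out it ran from 431 (HFD replicate 3 left out) to 1523 (RD replicate 1 left out). The count was 490 when HFD replicate 2, 701 when HFD replicate 1 and 890 when RD replicate 2 was the library left out. The cause was not tested. Of the 8 genes, 1 was called in the fit as reported (10.5% of all genes) and 0 with the replicate block (5.82%). Between 0 and 1 was called with a library left out (3.08% to 10.9% of all genes). At an unadjusted p under 0.05 there were 2 with the block and 1 to 4 with a library left out. The share of all genes at that level is not given for these fits. Without RD replicate 1 the 1 gene called was PCSK1 and not CRHR1. With the covariates PAX7, melanotroph sum and posterior lobe sum, in fits chosen after the values were seen, the number called was 2, 2 and 3, which is no test of these genes. Deviations of same-numbered libraries correlated at -0.18, 0.07 and -0.15 over genes, and 1 of 3 HFD libraries correlated best with its own number. So few correlations cannot exclude a pairing or a shared batch, in all genes or in some. With the replicate block in edgeR, CRHR1 had an adjusted p of 0.073, NR4A1 0.0079 and NR4A2 0.021. The change of TBX19 ran from -0.16 to 0.016, that of PAX7 from -0.14 to 0.40 and the log2 ratio of PAX7 to TBX19 from -0.13 to 0.52 with a library left out. The other 3 ratios kept their sign in every alternative. At 3 counts a library reaches 0.166 to 0.211 CPM, so AVPR1B and NEUROD1, at 72 to 161 counts a library, bound only changes of the size given by their intervals.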
